A study of Mus musculus with 2 samples.

Results

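Basement membranes are thin protein sheets under or around cells, and the 10 genes described here encode chains of their laminins and the proteins that tie laminin to the rest of the sheet. They are the laminin α chains Lama2, Lama3, Lama4 and Lama5, the β chains Lamb1 and Lamb2, the γ chain Lamc1, the nidogens Nid1 and Nid2, and Hspg2, the gene of perlecan. They were taken by these listed symbols and make up 10 of the 56980 genes in the deposited matrices. The study sequenced single nuclei of gonadal visceral adipose tissue (VAT) from female C57BL/6J mice, and the group used here is the young one, aged 2 months, with 1 library from each of 2 mice (replicate 1 and replicate 2). The mice carried no stated treatment or allele. The submitters' labels name both 10x Genomics and a Singleron GEXSCOPE single nucleus kit, a conflict that the labels do not settle, and the methods of the study name the Singleron kit. The cell type label of both libraries reads Adipocytes, yet adipocyte-like nuclei made up 56.2% and 37.0% of the nuclei kept.

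A laminin molecule joins an α, a β and a γ chain, and cells secrete it as a finished trimer that assembles into a network at the cell surface. Nidogens bind the γ1 chain and link laminin to type IV collagen, while perlecan, a heparan sulfate proteoglycan, adds further links and binds growth factors. In adipose tissue, each mature adipocyte is wrapped in a basement membrane, as are blood vessels, and the mesothelium that covers visceral fat rests on another.

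The libraries stood apart in depth and in mitochondrial RNA. Of 24492 barcodes called by the authors, 15058 nuclei passed limits of more than 500 genes, more than 1000 UMIs and under 15% mitochondrial UMIs: 2833 of 7344 in replicate 1 and 12225 of 17148 in replicate 2. The median nucleus held 2221 UMIs and 6.20% mitochondrial UMIs in replicate 1, against 2726 UMIs and 0.621% in replicate 2. Among the kept nuclei, 27 barcodes occurred in both libraries. Each level below is given for replicate 1 and then replicate 2, and the ratio in each library alone is given for each member's leading cell type.

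Clusters were named by marker lists, as adipocyte-like (1591 and 4529 nuclei), fibro-adipogenic progenitor-like or FAP-like (261 and 1306), mesothelial-like (248 and 2164), endothelial-like (71 and 523), smooth muscle-like (23 and 147) and immune-like (259 and 1106). A further cluster of 380 and 2450 nuclei matched no list and was led by Gm10801, Gm10718 and Chl1. The UMIs of each type were summed within each library, and each level is in CPM, which scales a gene's UMIs to all UMIs of that sum. Each type was set against the average of the other 5 by edgeR quasi-likelihood with the library as a block and Benjamini-Hochberg adjustment over 13952 genes. A gene was called higher or lower at an adjusted p under 0.05 with a log2 fold change of 1 or more in size. All 10 members passed the filter on low counts. Among the alternatives, 2 also changed the types compared. At resolution 0.3 no cluster could be named adipocyte-like, so each type was set against 4 others without adipocyte-like nuclei. At a mitochondrial limit of 5% mesothelial-like and smooth muscle-like nuclei were too few, so each type was set against 3 others, and the endothelial-like class held 74 and 2238 nuclei. TMM scaling was used in the main fit and in the ratios of each library alone, but not in the CPM levels. It placed the median gene of the adipocyte-like contrast 0.49 (log2) above its place under scaling by library totals. For the adipocyte-like against FAP-like contrast the shift was 0.45, so the values of those contrasts are relative to these shifts. In the smooth muscle-like contrast the shift was -0.18, and in the immune-like one -0.13.

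Across the tissue, different cell types carried different sets of these genes. FAP-like nuclei were high in Lama2, Lamb1, Lamc1, Nid1 and Hspg2, which include an α, a β and a γ chain, a nidogen and perlecan. Adipocyte-like nuclei were high in Lama4, mesothelial-like nuclei in Nid2, endothelial-like nuclei in Lama3, Lama5 and Hspg2, and smooth muscle-like nuclei in Lama5. Immune-like nuclei were high in none of the 10.

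**Figure D1:**
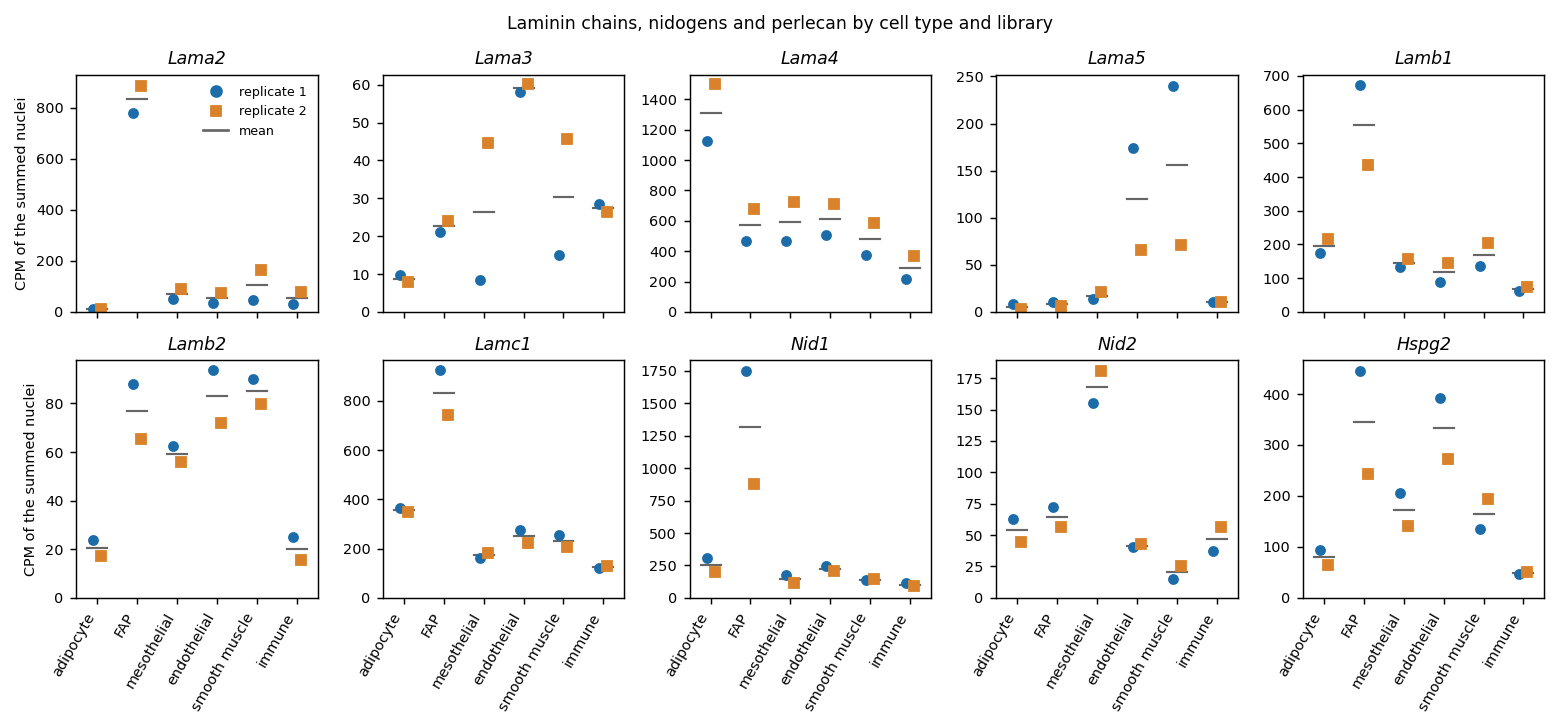
Level of each member in 6 cell types. Each panel shows 1 gene, with the CPM of the summed nuclei on the vertical axis. Circles are replicate 1, squares replicate 2 and grey bars their mean. The vertical axes differ between panels and start at 0, so heights are compared between cell types within a gene and not between genes.

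The α chains carry most of the contacts of a laminin with its receptors, and their 4 genes peaked in different cell types. Lama2 encodes the α2 chain of muscle and nerve laminins. Its level in FAP-like nuclei was 781 and 886 CPM. In adipocyte-like nuclei it was 11.8 and 12.2, and in mesothelial-like nuclei 48.9 and 91.3. FAP-like nuclei thus held the most Lama2 in both libraries, with no overlap with any other type. Endothelial-like nuclei read 35.7 and 74.2 CPM, smooth muscle-like nuclei 45.0 and 162, and immune-like nuclei 32.1 and 79.3. In the order of mean levels, the FAP-like mean was 8.03 times the next, the 4 middle types overlapped their neighbours, and adipocyte-like nuclei stood alone at the bottom. By edgeR quasi-likelihood, Lama2 rose in FAP-like nuclei by 4.04 (log2, SE 0.165, adjusted p = 1.2e-26). The log2 ratio of TMM-scaled CPM to the mean of the other types was 3.73 in replicate 2 alone and 4.67 in replicate 1 alone. Such ratios, here and below, do not follow directly from the unscaled CPM levels.

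In single nuclei the same pattern held at equal depth. After each nucleus was thinned to 1000 UMIs, Lama2 was detected in 47.9% of FAP-like nuclei of replicate 1 (95% interval 41.7 to 54.1, counting error alone) and 50.8% (48.1 to 53.6) in replicate 2. Immune-like nuclei, taken as the reference, gave 2.70% (1.09 to 5.49) and 8.41% (6.84 to 10.2), so the intervals of these types did not overlap. Without thinning the shares were 63.6% and 71.4% in FAP-like nuclei, with median depths of 1749 and 2086.5 UMIs, against 6.18% and 13.8% in immune-like nuclei, with 1632 and 1889. Marker genes of other types were low in FAP-like nuclei but not at 0: the 10 adipocyte markers summed to 3002 and 3039 CPM, led by Pparg, against 13282 and 12628 in adipocyte-like nuclei, and their part in the result was not tested.

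Promoter sequences are shown for the FAP-high members that the RefSeq table of mouse promoters held, since these genes were high in the same cells. Entries were found for 6 of the 10 members (Lama2, Lama5, Lamb1, Lamb2, Nid1 and Hspg2) and not for Lama3, Lama4, Lamc1 or Nid2. Each line gives the 250 bases upstream of the start of the gene, 5′ to 3′ on the gene's strand, in build GRCm38.p6: Lama2 at chr10:27616943-27617192 on the minus strand, Lamb1 at chr12:31265043-31265292, Nid1 at chr13:13437352-13437601 and Hspg2 at chr4:137468553-137468802, all 3 on the plus strand. Capitals mark the GC box (GGGCGG, or CCGCCC on the other strand) and the CCAAT box (CCAAT, or ATTGG). The TATA box (TATAAA, or TTTATA) was searched as well, on both strands, and no matches overlapped.
Lama2: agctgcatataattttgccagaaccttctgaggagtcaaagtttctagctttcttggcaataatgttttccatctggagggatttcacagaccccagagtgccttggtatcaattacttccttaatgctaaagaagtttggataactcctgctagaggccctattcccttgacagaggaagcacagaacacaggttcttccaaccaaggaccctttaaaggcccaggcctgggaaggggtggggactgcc
Lamb1: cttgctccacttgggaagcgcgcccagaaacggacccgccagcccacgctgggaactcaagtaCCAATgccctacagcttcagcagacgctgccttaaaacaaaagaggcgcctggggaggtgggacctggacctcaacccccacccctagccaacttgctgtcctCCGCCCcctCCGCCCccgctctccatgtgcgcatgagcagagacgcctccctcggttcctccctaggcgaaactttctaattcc
Nid1: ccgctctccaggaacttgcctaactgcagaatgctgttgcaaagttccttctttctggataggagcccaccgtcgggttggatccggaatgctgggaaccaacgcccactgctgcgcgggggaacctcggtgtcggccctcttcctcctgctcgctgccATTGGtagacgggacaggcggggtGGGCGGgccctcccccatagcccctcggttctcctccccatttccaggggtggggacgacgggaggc
Hspg2: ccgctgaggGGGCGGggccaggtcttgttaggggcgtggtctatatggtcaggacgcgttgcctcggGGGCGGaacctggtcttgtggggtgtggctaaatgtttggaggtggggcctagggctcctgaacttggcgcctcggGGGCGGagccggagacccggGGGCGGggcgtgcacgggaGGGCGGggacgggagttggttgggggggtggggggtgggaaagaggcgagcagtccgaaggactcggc
Lama2 differed from the other 3 in base composition and in its matches. Its promoter was 47.2% G and C and held none of the 3 motifs, against 62.0% with 2 GC boxes and 1 CCAAT box for Lamb1, 64.4% with 1 GC box and 1 CCAAT box for Nid1, and 70.0% with 5 GC boxes for Hspg2. Over all 32851 promoters of the table the median was 52.4% G and C, a GC box occurred in 32.7%, a CCAAT box in 33.8% and a TATA box in 12.4%. A match is a description of the letters alone.

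Lama3, which encodes an α chain best known from epithelia, was scarce in this tissue and, of the 6 named types, highest in endothelial-like nuclei. There it reached 58.0 and 60.1 CPM, from 13 and 81 UMIs. Immune-like nuclei gave 28.5 and 26.3 CPM, FAP-like nuclei 21.2 and 24.1, and adipocyte-like nuclei 9.71 and 7.92. The endothelial-like values stood above those of all 5 other types in both libraries, while mesothelial-like nuclei (8.44 and 44.5) spread widely between the libraries. Smooth muscle-like nuclei gave 15.01 and 45.6 CPM. The 15.01 CPM rest on 1 UMI, below a floor of 3 UMIs (45.0 CPM), so no spread is read from these values. Lama3 rose in endothelial-like nuclei by 1.25 (SE 0.323, edgeR adjusted p = 0.00456). This call did not hold without the library block, where the value was 1.28 with an adjusted p of 0.0811, nor at a clustering resolution of 0.3, where the average did not hold adipocyte-like nuclei and the value was 1.00 with an adjusted p of 0.0549. Over all settings run, the adjusted p ranged from 1.7e-06 to 0.0811. The ratio was 1.10 in replicate 2 alone and 1.74 in replicate 1 alone. At equal depth, Lama3 was seen in 7.04% (2.33 to 15.7) and 7.27% (5.19 to 9.84) of endothelial-like nuclei and in 1.93% (0.630 to 4.45) and 2.89% (1.99 to 4.06) of immune-like nuclei, so these intervals overlapped in replicate 1 and not in replicate 2. Mesothelial-like nuclei of replicate 2 gave 4.85% (3.99 to 5.84) and smooth muscle-like nuclei 4.76% (1.94 to 9.57), whose intervals overlapped the endothelial-like one. Unthinned, the shares were 11.3% and 11.5% against 4.63% and 4.88%, at median depths of 2035 and 1844 UMIs in endothelial-like nuclei.

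Within the immune-like nuclei, Lama3 was uneven. A small cluster of 29 and 38 nuclei, led by Saa3, Prg4 and Alox15, held 132 and 103 CPM of Lama3, from 10 and 13 UMIs. The other immune-like clusters held 16.2 and 23.1 CPM and 5.68 and 21.1 CPM, below the small cluster in both libraries. The same small cluster held 1849 and 969 CPM of Itga6, the α6 integrin chain that pairs into laminin receptors, against 77.6 and 55.2 and 56.8 and 79.3 CPM in the others. The median share of mitochondrial UMIs was also higher in the small cluster, at 10.5% and 4.39%. In the other immune-like clusters it was 7.82% and 1.15% and 7.55% and 1.37%. These clusters were not compared by a test, and the part of mitochondrial RNA in the differences was not tested.

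Lama4 encodes the α4 chain of the laminins of vessels and fat, and it was the α chain of adipocyte-like nuclei. They held 1126 and 1499 CPM of it. Endothelial-like nuclei held 509 and 708, mesothelial-like nuclei 464 and 724, and FAP-like nuclei 469 and 680.1. Adipocyte-like nuclei therefore stood above every other type in both libraries, at 2.16 times the next mean, and the 4 types that followed overlapped one another. Smooth muscle-like nuclei (375 and 584 CPM) closed that middle group, and immune-like nuclei were lowest, at 217 and 366. In adipocyte-like nuclei Lama4 rose by 1.89 (SE 0.146, edgeR adjusted p = 5.9e-16), by 1.59 under DESeq2 and by 1.41 under library totals. The ratio was 1.96 in replicate 2 alone and 2.05 in replicate 1 alone, taken on TMM-scaled CPM and not on the levels above.

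Adipocyte-like nuclei were deeper than the rest, with medians of 2933 and 6159 UMIs, so the share of nuclei with Lama4 was also read at equal depth. It came to 60.8% (58.4 to 63.3) and 71.9% (70.6 to 73.2) there, against 8.88% (5.71 to 13.03) and 16.8% (14.7 to 19.2) in immune-like nuclei. Unthinned, the shares were 85.4% and 96.9% against 15.1% and 27.8%. The intervals of these types lay far apart in both libraries. Detection of Lamc1 differed little with that of Lama4: in thinned nuclei with Lama4, Lamc1 was seen in 26.7% and 26.3%, and in those without it in 26.0% and 28.4%.

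Lama4 was present in every other type as well, where adipocyte markers were also found. Relative to the UMIs of the 10 adipocyte markers, none of which was at 0, Lama4 came to 0.0848 and 0.119 in adipocyte-like nuclei and to 0.0609 and 0.109 in immune-like nuclei. In FAP-like nuclei this ratio was 0.156 and 0.224, in mesothelial-like nuclei 0.144 and 0.214, in endothelial-like nuclei 0.114 and 0.119, and in smooth muscle-like nuclei 0.0903 and 0.159. The 4 types other than immune-like nuclei held more Lama4 for each adipocyte marker UMI than adipocyte-like nuclei of the same library. In endothelial-like nuclei of replicate 2 (0.1195 against 0.1187) the difference was slight. The smooth muscle-like 0.0903 of replicate 1 rests on 25 Lama4 UMIs, and their counting error was not set against the distance to 0.0848. The summed markers, led by Pparg in each type, were 3214 and 3385 CPM in mesothelial-like, 4446 and 5928.5 in endothelial-like, 4158 and 3668 in smooth muscle-like and 3569 and 3374 in immune-like nuclei, and their part in the Lama4 levels was not tested.

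Lama5, the α5 chain of mature vessel laminin, marked the cells of vessel walls. Smooth muscle-like nuclei held 240.2 and 71.2 CPM of it, from 16 UMIs in replicate 1. Endothelial-like nuclei held 174 and 65.3 CPM, from 39 and 88 UMIs. These types overlapped each other and stood above all 4 others, the endothelial-like mean being 6.97 times that of mesothelial-like nuclei (13.5 and 20.9 CPM). FAP-like nuclei (10.6 and 6.68), immune-like nuclei (10.7 and 10.5) and adipocyte-like nuclei (7.98 and 3.09) were low and, as neighbours, overlapped. Lama5 rose in smooth muscle-like nuclei by 2.70 (SE 0.387, edgeR adjusted p = 3.7e-07) and in endothelial-like nuclei by 2.53 (SE 0.288, adjusted p = 5.1e-10). The libraries differed in size of effect: the smooth muscle-like ratio was 2.21 in replicate 2 alone and 3.18 in replicate 1 alone.

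Few nuclei carried a Lama5 UMI at equal depth. The share was 13.04% (2.78 to 33.6) and 5.44% (2.38 to 10.4) of smooth muscle-like nuclei, 11.3% (4.99 to 21.0) and 7.07% (5.03 to 9.62) of endothelial-like nuclei, and 1.16% (0.240 to 3.35) and 0.995% (0.498 to 1.77) of immune-like nuclei. Only the smooth muscle-like interval of replicate 1 overlapped that of the immune-like reference among these pairs. Unthinned shares were 21.7% and 12.9%, 28.2% and 14.0%, and 2.32% and 2.26% in the same order, with smooth muscle-like medians of 1831 and 1972 UMIs. Endothelial markers summed to 135 and 271 CPM in smooth muscle-like nuclei, led by Emcn, against 7701 and 5109.85 in endothelial-like nuclei. Smooth muscle markers summed to 1054 and 399.7 CPM in endothelial-like nuclei, led by Rgs5 and by Mylk, against 10253 and 6523 in smooth muscle-like nuclei. Each of these lists has 10 genes, none was at 0, and their part in the Lama5 levels was not tested.

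The make-up of the α chains can be compared between genes only per length, since the genes differ widely: Lama2 spans 640 kb with a longest transcript of 9.68 kb, Lama3 251 and 12.2, Lama4 157 and 7.87, and Lama5 49.5 and 11.4. Shares below are of the summed level of Lama1 to Lama5 per kb. Per kb of transcript, Lama4 made up 98.1% and 98.6% of the α chain level in adipocyte-like nuclei and 87.6% and 84.9% in mesothelial-like nuclei, and per kb of gene span 96.9% and 98.5% and 85.8% and 84.4%. Lama4 was thus the leading α chain of both types on either scale. In FAP-like nuclei the order depended on the scale. Per kb of transcript, Lama2 led with 56.1% and 50.3% before Lama4 with 41.4% and 47.5%. Per kb of span Lama4 led with 65.2% and 71.6% before Lama2 with 26.7% and 22.9%. These shares include a FAP-like subcluster led by adipocyte genes, described below, that was higher in Lama4 and lower in Lama2. Its part in the shares was not tested.

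Vessel cells had a mixed set. Per kb of transcript, Lama4 made up 73.2% and 82.2% of the α chain level of endothelial-like nuclei and Lama5 17.2% and 5.21%. Per kb of span, Lama5 held 49.9% and 21.03% there and Lama4 45.99% and 71.9%, so the leading chain differed between the libraries on that scale. In smooth muscle-like nuclei the shares per kb of transcript were 64.0% and 72.7% for Lama4, 28.1% and 6.09% for Lama5, and 6.24% and 16.4% for Lama2. Per kb of span, Lama5 again led in replicate 1 with 65.8%, against 32.4% for Lama4, and Lama4 led in replicate 2 with 65.4%, against 25.3%. Immune-like nuclei, the reference, gave Lama4 80.8% and 78.6% per kb of transcript.

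**Figure D2:**
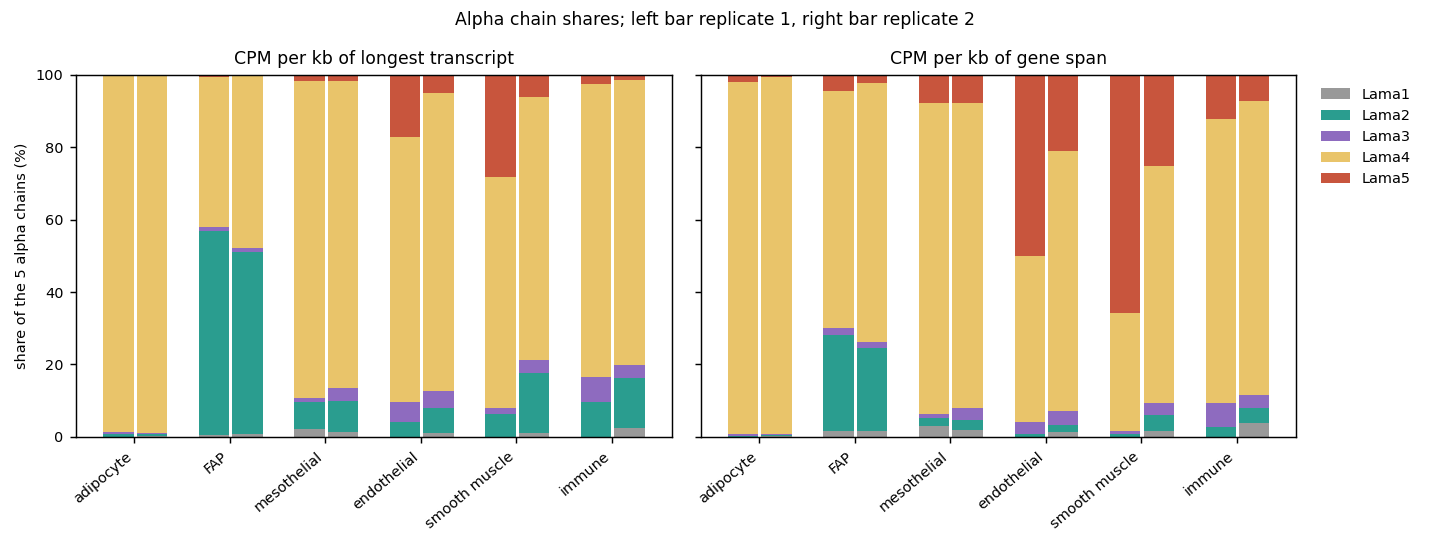
Share of each α chain in the summed level of Lama1 to Lama5, by cell type. The panels use CPM per kb of the longest transcript and CPM per kb of gene span. In each pair of bars the left bar is replicate 1 and the right bar replicate 2. Lama4 fills nearly the whole bar in adipocyte-like nuclei on either scale, while the Lama2 part of the FAP-like bars and the Lama5 part of the endothelial-like and smooth muscle-like bars change with the scale.

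Of the β chains, Lamb1 was called higher in FAP-like nuclei, and Lamb2 was called higher in no type by the fit described above. Lamb1 encodes the β1 chain found in most laminins, and its level was highest in FAP-like nuclei, at 673 and 437 CPM. Adipocyte-like nuclei held 173 and 217, smooth muscle-like nuclei 135 and 205, and mesothelial-like nuclei 133 and 158. Endothelial-like nuclei held 89.3 and 146, and immune-like nuclei, at 60.6 and 73.7, were lowest. FAP-like nuclei were above all other types in both libraries, at 2.85 times the next mean, and the 4 types from adipocyte-like to endothelial-like overlapped as neighbours. Lamb1 rose in FAP-like nuclei by 2.03 (SE 0.174, edgeR adjusted p = 4.6e-14), with ratios of 1.49 in replicate 2 alone and 2.65 in replicate 1 alone. At equal depth it was detected in 42.5% (36.5 to 48.8) and 31.9% of FAP-like nuclei, against 3.47% and 4.61% of immune-like nuclei.

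Lamb2 encodes the β2 chain, known from vessel walls and the nerve-muscle junction. It was low in CPM, and 3 types shared the top of its order: smooth muscle-like nuclei with 90.1 and 79.8, endothelial-like nuclei with 93.7 and 71.9, and FAP-like nuclei with 88.1 and 65.4. These overlapped, mesothelial-like nuclei followed with 62.4 and 55.8, and adipocyte-like (23.9 and 17.1) and immune-like nuclei (24.9 and 15.4) overlapped at the bottom. The log2 difference was 0.85 in smooth muscle-like (adjusted p = 0.108), 0.82 in endothelial-like (0.0148) and 0.74 in FAP-like nuclei (0.00983), none of them past the fold of the call. The smooth muscle-like ratio was 0.86 in replicate 2 alone and 0.38 in replicate 1 alone. Detection at equal depth was 11.3% and 6.88% in endothelial-like nuclei, 6.51% and 6.20% in FAP-like nuclei and 1.54% and 0.995% in immune-like nuclei. In smooth muscle-like nuclei it was 8.70% (1.07 to 28.0) and 4.76% (1.94 to 9.57).

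Between the β chains, the leading gene also depended on the length used, as Lamb1 spans 64.6 kb and Lamb2 10.8 kb, with transcripts of 5.93 and 5.64 kb. Shares are of the summed level of Lamb1, Lamb2 and Lamb3, the β3 chain. Of this level per kb of transcript, Lamb1 made up 81.9% and 87.2% in adipocyte-like and 86.4% and 82.2% in FAP-like nuclei, and per kb of span 53.6% and 66.4% and 55.8% and 51.9%. It led in both types on either scale. In endothelial-like nuclei, Lamb2 made up 51.4% and 32.1% per kb of transcript and 86.0% and 73.8% per kb of span. In smooth muscle-like nuclei it made up 36.8% and 27.5%, and 78.3% and 69.1%, and in mesothelial-like nuclei 72.9% and 66.7% per kb of span, with 68.9% and 51.7% in immune-like nuclei. On the span scale Lamb2 therefore led in both libraries in these 4 types.

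Lamc1 encodes γ1, the γ chain of most laminins, and it was broadly present with a peak in FAP-like nuclei. The level there was 924 and 741 CPM. Adipocyte-like nuclei came next with 365 and 349, before endothelial-like nuclei with 277 and 222 and smooth muscle-like nuclei with 255 and 208. FAP-like and adipocyte-like nuclei each stood clear of their neighbours, with a ratio of 2.33 between them, whereas endothelial-like and smooth muscle-like nuclei overlapped. Mesothelial-like (162 and 184) and immune-like nuclei (121 and 129) closed the order without overlap. Lamc1 rose in FAP-like nuclei by 1.94 (SE 0.152, edgeR adjusted p = 1.5e-15), with 1.79 in replicate 2 alone and 2.13 in replicate 1 alone. In adipocyte-like nuclei the difference of 0.96 (adjusted p = 6.2e-07) stayed under the fold of the call, and under library totals it was 0.48 (adjusted p = 0.0141). Equal-depth detection was 55.9% and 46.2% in FAP-like, 26.4% and 26.9% in adipocyte-like and 9.65% and 8.23% in immune-like nuclei.

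Lamc3, which encodes the γ3 chain, held 90.1 and 65.5 CPM in smooth muscle-like nuclei, and it rose there by 2.44 (edgeR adjusted p = 3.4e-05).

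The nidogens, which bridge laminin and type IV collagen, divided between stroma and surface. Nid1 was highest in FAP-like nuclei with 1748 and 880.3 CPM. Adipocyte-like nuclei held 309 and 201, endothelial-like nuclei 246 and 207, and mesothelial-like nuclei 174 and 118. No other type reached the FAP-like level in either library, and the ratio to the next mean was 5.15. Smooth muscle-like nuclei held 135 and 145 CPM and overlapped with mesothelial-like nuclei, as did adipocyte-like with endothelial-like nuclei, and immune-like nuclei were lowest with 112 and 91.7. Nid1 rose in FAP-like nuclei by 2.88 (SE 0.153, edgeR adjusted p = 5.0e-22), with 2.55 in replicate 2 alone and 3.31 in replicate 1 alone. It was detected at equal depth in 70.9% (65.0 to 76.3) and 50.4% (47.6 to 53.1) of FAP-like nuclei and in 5.41% and 5.88% of immune-like nuclei.

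Nid2 was highest in mesothelial-like nuclei, at 155 and 181 CPM. FAP-like nuclei held 72.3 and 56.1, adipocyte-like nuclei 63.0 and 44.7, immune-like nuclei 37.4 and 56.4, and endothelial-like nuclei 40.2 and 43.0. Mesothelial-like nuclei were above the rest in both libraries at 2.62 times the next mean, and the 4 types that followed overlapped as neighbours. Smooth muscle-like nuclei held 15.01 and 25.6 CPM and were lowest in replicate 2. The 15.01 CPM rest on 1 UMI, below the floor of 3 UMIs (45.0 CPM). In replicate 1 smooth muscle-like nuclei are therefore not ordered against endothelial-like (40.2) and immune-like nuclei (37.4). The rise in mesothelial-like nuclei was 1.91 (SE 0.195, edgeR adjusted p = 1.3e-11), and it was nearly equal in the libraries, 1.99 in replicate 2 alone and 2.01 in replicate 1 alone. Equal-depth detection was 12.1% (8.31 to 16.8) and 16.3% (14.7 to 17.9) in mesothelial-like nuclei, at median depths of 1840.5 and 1903 UMIs, and 3.47% (1.60 to 6.49) and 5.70% (4.40 to 7.23) in immune-like nuclei, with no overlap of the intervals. FAP markers summed to 8351 and 5048 CPM in mesothelial-like nuclei, against 16256 and 9357 in FAP-like nuclei, both led by Dcn with none of the 10 at 0, and their part in the Nid2 result was not tested.

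Hspg2 encodes perlecan, a large proteoglycan of vessel and stromal matrix, and 2 types led its order. FAP-like nuclei held 446 and 244 CPM and endothelial-like nuclei 393 and 273. Mesothelial-like nuclei held 206 and 141 and smooth muscle-like nuclei 135 and 194. The leading types overlapped each other, as did the types of the next pair, and adipocyte-like (94.9 and 64.4) and immune-like nuclei (46.3 and 50.005) followed without overlap. Hspg2 rose by 1.28 in FAP-like (SE 0.175, edgeR adjusted p = 5.7e-08) and by 1.18 in endothelial-like nuclei (SE 0.187, adjusted p = 1.9e-06). In replicate 2 alone the FAP-like ratio was 0.98, and in replicate 1 alone it was 1.75. Detection at equal depth was 23.4% and 21.3% in FAP-like, 21.1% and 25.6% in endothelial-like and 4.25% and 4.61% in immune-like nuclei.

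The cluster without a name was not tested, and its levels are given beside those of the named types. It held 97.3 and 145 CPM of Lama2, 33.4 and 56.4 of Lama3 and 479 and 925 of Lama4. By mean level these would each place it after the leading type, and its Lama3 in replicate 2 lay close to the endothelial-like 60.1. Its other α chain, Lama5, was at 21.8 and 12.2 CPM. Lamb1 was at 151 and 158, Lamb2 at 27.6 and 16.2 and Lamc1 at 248 and 265. Nid1 held 267 and 171 CPM, Nid2 59.6 and 55.9, and Hspg2 163 and 77.9. For none of the 10 members was this cluster above the leading named type in either library. Adipocyte markers summed to 8260.2 and 7951 CPM in it, and their part in these levels was not tested.

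Counted by cell type, FAP-like nuclei carried the most members of the 6 types. There 5 of 10 members were called higher (Lama2, Lamb1, Lamc1, Nid1 and Hspg2), where 7.53% of all genes were, and 1 was called lower, Lama5 with -1.72 (adjusted p = 0.000678), where 2.72% were. The lower call of Lama5 was not made without the library block, nor at a mitochondrial limit of 5%. The median log2 difference of the members was 1.01, and that of all genes -0.02.

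In adipocyte-like nuclei 1 of 10 members was called higher (Lama4), where 14.1% of all genes were, and 4 were called lower, where 26.4% were. Lama2 fell by 2.87, Lama5 by 2.19, Lama3 by 1.46 and Lamb2 by 1.04 on the log2 scale, each at an adjusted p of 6.9e-05 or less. The lower call of Lamb2 was not made without the low-count filter, without the library block or at a mitochondrial limit of 5%, and Hspg2 (-0.73) was called lower as well by DESeq2 (-1.01) and under library totals (-1.21). Lamb1 (0.69), Nid1 (0.57) and Nid2 (0.38) were small in difference, and under library totals they read 0.21, 0.09 and -0.09, so the direction of Nid2 flipped with the scaling. The split of calls over all genes also moved with the scaling, from 1965 higher and 3680 lower to 1111 and 4386 by DESeq2 and to 796 and 4701 under library totals, that is, 34.8%, 20.2% and 14.5% of calls in the higher direction. The median of the members was -0.18, beside 0.07 over all genes.

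Mesothelial-like nuclei had 1 of 10 members higher (Nid2), with 10.0% of all genes called higher, and 0 lower by edgeR, with 2.32% of all genes. At an unadjusted p under 0.05, 2 members were lower there, and these also passed the adjusted p but not the fold: Lamc1 with -0.75 (adjusted p = 0.00143) and Nid1 with -0.89 (adjusted p = 0.000429). DESeq2 called 0. Endothelial-like nuclei had 3 higher (Lama3, Lama5 and Hspg2), with 6.63% of all genes, and 0 lower by edgeR, with 2.02%. At an unadjusted p under 0.05, 2 members were lower in these nuclei and passed neither the adjusted p nor the fold (Lama2 with -0.69, adjusted p = 0.073, and Lamb1 with -0.64, adjusted p = 0.0545), and DESeq2 called 0. Lama3 was not called higher without the library block or at resolution 0.3, Hspg2 was not called higher at a mitochondrial limit of 5%, with its larger endothelial-like class and fewer types averaged, and Lamb2 was called higher as well with subclusters against their name left out, that is, those led by markers of another type. Member medians were -0.05 and -0.07, against 0.01 and -0.05 over all genes.

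Smooth muscle-like nuclei had 1 of 10 members higher (Lama5), with 4.82% of all genes, and 1 lower, Nid2 with -1.62 (SE 0.447, adjusted p = 0.0117), with 2.64% of all genes. Of all calls there, 64.6% were in the higher direction, against 80.3% by DESeq2 and 80.9% under library totals, and under library totals Lamb2 was called higher as well. Immune-like nuclei had 0 members higher by edgeR, also 0 at an unadjusted p under 0.05 and 0 by DESeq2, with 10.7% of all genes called higher. They had 7 of 10 lower, with 6.21% of all genes: Hspg2 fell by 2.03, Lamb2 by 1.73, Lamb1 by 1.71, Nid1 by 1.53, Lamc1 by 1.39, Lama4 by 1.31 and Lama5 by 1.22. Lama5 was not called lower without the library block or at a mitochondrial limit of 5%, where fewer types were averaged. Lama4 was not called lower at resolution 0.3, where adipocyte-like nuclei, the highest in Lama4, were not among the types averaged. The remaining members read -0.71 for Lama2, -0.28 for Nid2 and -0.12 for Lama3. The member median was -1.35, and that of all genes -0.01.

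**Figure D3:**
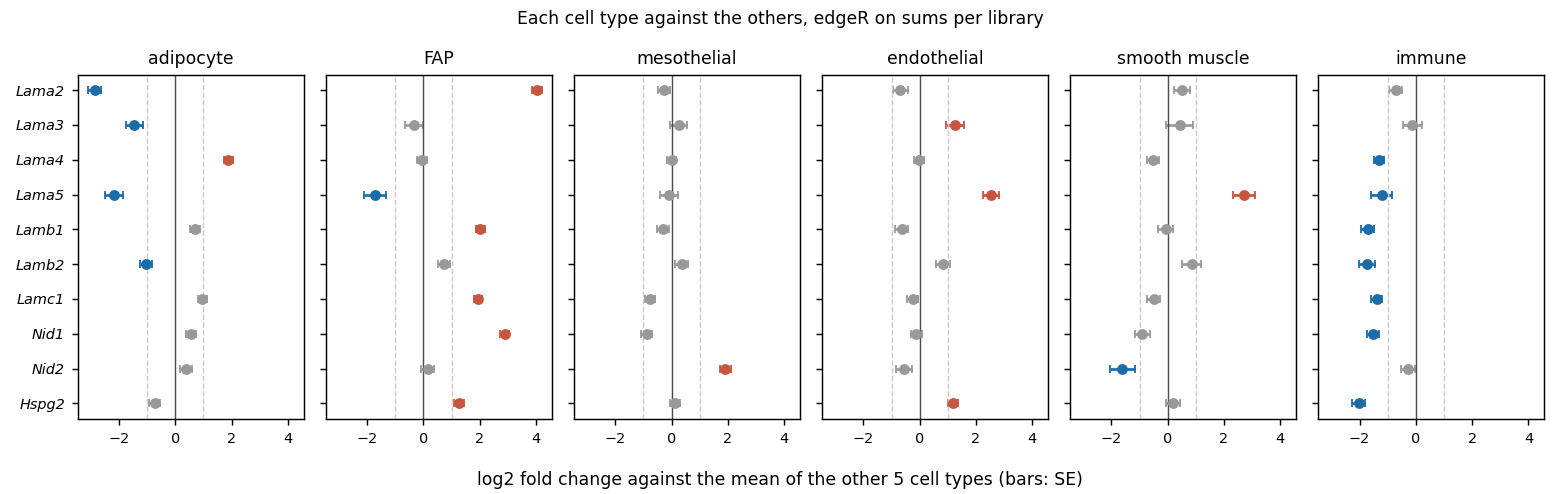
Log2 fold change of each member in each cell type against the mean of the other 5, with its standard error. Red points were called higher, blue points lower and grey points neither. Dashed lines mark a log2 fold change of 1 and -1. The red points of FAP-like nuclei cover an α, the β1 and γ1 chains, Nid1 and Hspg2, and the blue points of immune-like nuclei cover 7 members.

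Adipocyte-like and FAP-like nuclei, the fat cells and the stromal cells that can become fat cells, were also compared directly. Lama4 was the member that rose in adipocyte-like nuclei, by 1.61 (SE 0.217, edgeR adjusted p = 1.6e-08), so 1 of 10 members was higher, with 14.1% of all genes. In the other direction 5 of 10 members were lower, with 23.0% of all genes. Lama2 fell by 5.75, Nid1 by 1.93, Hspg2 by 1.68, Lamb2 by 1.49 and Lamb1 by 1.11. Lamc1 (-0.81) and Lama3 (-0.94) were past the adjusted p and under the fold. The share of calls in the higher direction was 38.1% here, 24.9% by DESeq2 and 17.7% under library totals, and the members that passed kept their direction under each scaling. DESeq2 called 6 members lower, with Lamc1 added, and library totals 7, with Lamc1 and Lama3 added. At a mitochondrial limit of 5% there were 4, without Lamb1. The median was -1.02 for the members and 0.04 for all genes.

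Mesothelial-like and FAP-like nuclei, the surface layer and the stroma beneath it, differed in nidogen and in α chain. Nid2 rose by 1.47 (SE 0.262, edgeR adjusted p = 1.9e-05) and Lama5 by 1.35 (SE 0.454, adjusted p = 0.0375) in mesothelial-like nuclei, 2 of 10 members, with 5.96% of all genes higher. Lama2 fell by 3.60, Nid1 by 3.14, Lamc1 by 2.24 and Lamb1 by 1.94, 4 of 10 members, with 4.87% of all genes lower. The Lama5 call was not made with DESeq2, without the low-count filter, without the library block, under library totals or at a resolution of 0.3. The member median was -0.64, and the median of all genes 0.05.

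Smooth muscle-like against endothelial-like nuclei compared the mural and the inner layer of vessels. By edgeR 0 of 10 members were higher, with 4.09% of all genes, and 0 lower, with 5.55%. At an unadjusted p under 0.05, 1 was higher (Lama2 with 0.99, SE 0.361, adjusted p = 0.0709) and 2 lower (Hspg2 with -0.84, SE 0.294, and Nid1 with -0.65, SE 0.302), and DESeq2 called 0 in either direction, with 0 and 1 (Hspg2) at an unadjusted p under 0.05. Lama5 differed by 0.14 (SE 0.425). The member median was -0.32, beside -0.08 over all genes.

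Other components of the basement membrane, a list of 22 genes, and 9 receptors for laminin and collagen were counted by the same calls. In FAP-like nuclei 1 receptor (Itga2) was higher, with 7.53% of all genes. There 1 component and 5 receptors were lower, with 2.72% of all genes. In adipocyte-like nuclei 2 components (Col15a1 and Pxdn) and 2 receptors (Itga6 and Itga7) were higher, with 14.1% of all genes. There 14 components and 4 receptors were lower, with 26.4% of all genes. Col15a1, the chain of a collagen bound to basement membranes, held 591 and 339 CPM in adipocyte-like nuclei and rose by 1.85 (edgeR adjusted p = 4.6e-15). Itga7, the α7 chain of a laminin receptor, held 100.2 and 70.1 CPM there and rose by 1.31 (adjusted p = 4.7e-08).

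Around Nid2, mesothelial-like nuclei had 10 of the 22 components higher, among them 4 type IV collagen chains, and 2 receptors (Bcam and Itga3). In these nuclei 2 components and 1 receptor were lower. Of all genes, 10.0% were called higher there and 2.32% lower. Col4a5 held 236 and 316 CPM and rose by 2.79 (edgeR adjusted p = 6.0e-18), and Col4a6 held 238 and 243 and rose by 2.93 (adjusted p = 1.4e-18). Itga3, the α3 chain of a laminin receptor, held 150.2 and 111 CPM and rose by 3.15 (adjusted p = 3.1e-16). In adipocyte-like nuclei Col4a5 held 6.94 and 7.34 CPM, far below the mesothelial-like values.

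Beside Lama5, smooth muscle-like nuclei had 7 components (Lamc3, Col4a5, Col4a6, Npnt, Tinagl1, Ntn4 and Sparc) and 3 receptors (Bcam, Itga7 and Itga1) higher. Of each list 1 was lower, and of all genes 4.82% were higher there and 2.64% lower. Endothelial-like nuclei had 2 components (Hmcn1 and Tinagl1) and 4 receptors (Itga6, Bcam, Itgb4 and Itga1) higher and 2 components lower. Of all genes, 6.63% were higher in endothelial-like nuclei and 2.02% lower. Bcam, a receptor for the laminin α5 chain, held 210.2 and 76.9 CPM in smooth muscle-like and 179 and 81.6 in endothelial-like nuclei, and rose by 1.96 (edgeR adjusted p = 1.0e-05) and 2.04 (adjusted p = 4.3e-10). FAP-like nuclei, low in Lama5, held 5.29 and 6.97 CPM of Bcam, so both genes were high in the vessel types and low in FAP-like nuclei in each library. In mesothelial-like nuclei they parted: Bcam held 174 and 93.8 CPM and rose by 2.23 (adjusted p = 1.1e-13), while Lama5 differed by -0.10. In immune-like nuclei 7 components and 3 receptors were lower, with 6.21% of all genes.

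**Figure D4:**
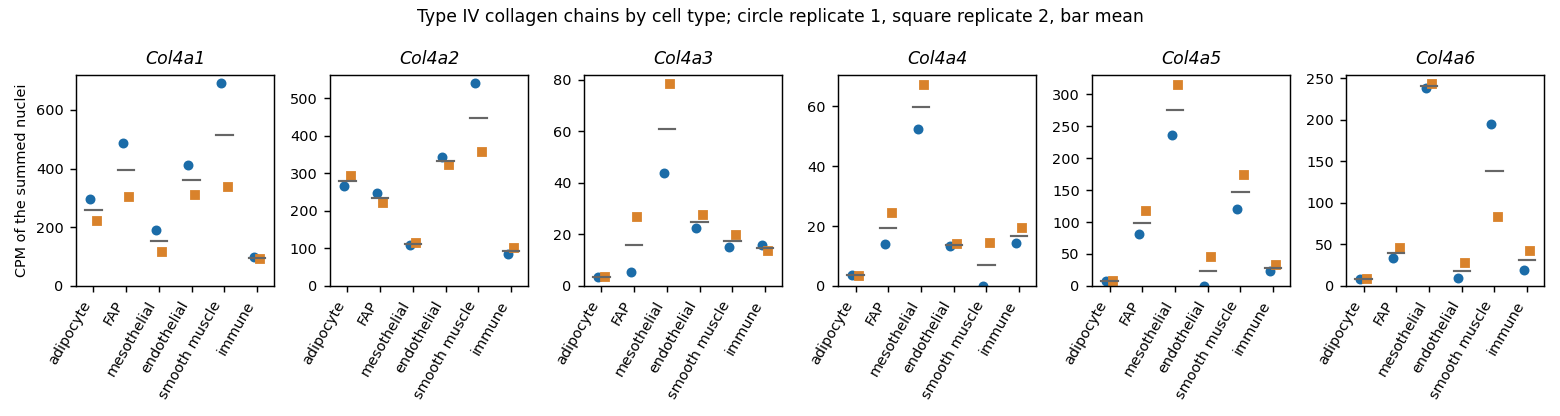
Levels of the 6 type IV collagen chains by cell type, in CPM of the summed nuclei. Circles are replicate 1, squares replicate 2 and bars their mean, with vertical axes that differ between panels. Col4a1 and Col4a2 were present in every type, while Col4a3 to Col4a6 were highest in mesothelial-like nuclei, and Col4a5 and Col4a6 were next in smooth muscle-like nuclei.

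The members also varied within cell types. Among adipocyte-like nuclei, a second subcluster of 148 and 673 nuclei was led by Ntrk3, Cidea and Esrrg and had Prdm16 and Ucp1, genes known from thermogenic fat cells, among its leading genes. Between it and the first subcluster (1443 and 3856 nuclei), 4 of 10 members passed an adjusted p of 0.05, with 9.06% of 14138 genes. Nid2 was at 16.2 and 17.1 CPM in the second subcluster and 69.2 and 50.3 in the first, a log2 difference of -1.69 (edgeR adjusted p = 9.3e-13). Nid1 was at 142.5 and 129.9 against 332 and 216 (-0.94, adjusted p = 5.4e-08). Both nidogens were thus lower in the second subcluster in each library.

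Lamb1 went the other way, with 282 and 349 CPM in the second subcluster and 159 and 189 in the first (0.86, adjusted p = 3.1e-07), and Lamc1 was lower, with 247 and 277 against 380.3 and 364 (-0.50, adjusted p = 0.0102). The Lamb1 values did not overlap between the subclusters, nor did those of Lamc1. Lama4, at 1209 and 1777 against 1115 and 1441 CPM, differed by 0.21 (adjusted p = 0.514). Without the library block 0 members passed by edgeR, with 3 at an unadjusted p under 0.05 (Lamb1, Nid1 and Nid2), and DESeq2 with the block passed the same 3.

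**Figure D5:**
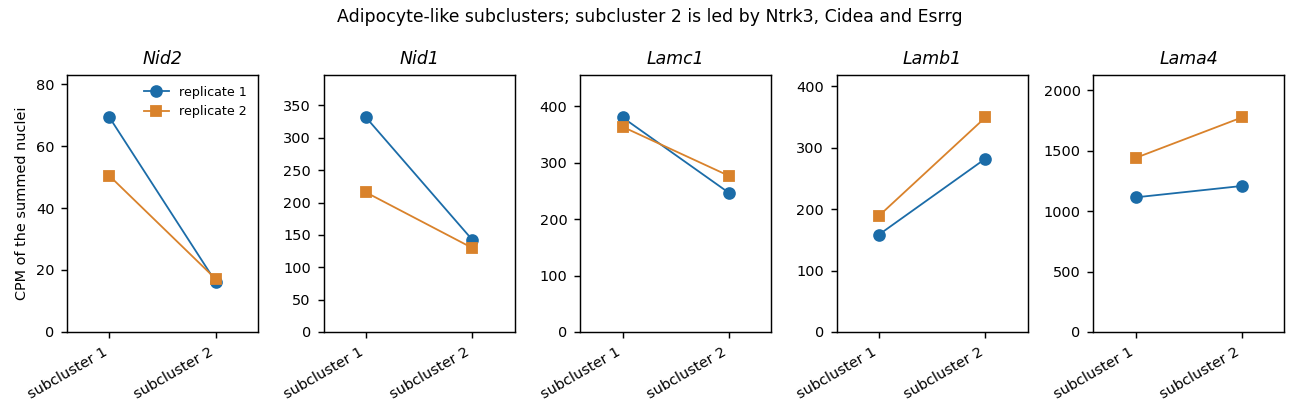
Levels of members in the adipocyte-like subclusters, in CPM of the summed nuclei. Lines join the subclusters of 1 library (circles replicate 1, squares replicate 2), and the vertical axes start at 0 and differ between panels. The lines of Nid1, Nid2 and Lamc1 run downward from the first to the second subcluster and those of Lamb1 upward in both libraries.

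FAP-like, mesothelial-like, endothelial-like and immune-like nuclei each held a subcluster led by adipocyte genes, and members were tested between subclusters in the FAP-like and mesothelial-like nuclei. Between the FAP-like subclusters 5 of the 9 members tested passed (Lama2, Lama4, Lamb1, Nid1 and Hspg2), with 16.9% of 9380 genes; Lama5 was not tested there. Without the low-count filter and by DESeq2 3 of these passed (Lama2, Lama4 and Nid1), and without the library block 1 (Lama2). The second, of 31 and 159 nuclei and led by genes that include Acaca and Pparg, held 747 and 1206 CPM of Lama4 against 411 and 508 in the first. Lama2 was the reverse, at 225 and 316 against 896 and 1073. The mean doublet score was 0.253 in this subcluster and 0.0670 in the first, and its part in the differences was not tested.

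Between the mesothelial-like subclusters 6 of 10 members passed (Lama2, Lama3, Lama4, Lamc1, Nid1 and Nid2), with 29.5% of 12691 genes. DESeq2 passed 5 of them, without Nid1, edgeR without the low-count filter 5, without Lama3, and edgeR without the library block 3 (Lama2, Lama3 and Lama4). One of them, of 30 and 247 nuclei, was led by adipocyte genes with a mean doublet score of 0.273. Another, of 46 and 638 nuclei, matched no list and was led by Gm10801, Gm10800 and Chl1, which were also among the leading genes of the cluster without a name. It held 139 and 150.5 CPM of Nid2, against 186 and 239 in the largest mesothelial-like subcluster. With the subcluster led by adipocyte genes left out, a choice made after seeing the data, edgeR passed 0 members, 2 being under an unadjusted p of 0.05 (Lama2 and Lama3), and DESeq2 was not run on that comparison. In endothelial-like nuclei the subcluster led by Pgm3, Cfd and Car3 made up 20 and 152 nuclei of the 71 and 523, and it matched the adipocyte, FAP and macrophage lists. It held 64.6 and 23.9 CPM of Lama3, 210.03 and 17.96 of Lama5 and 194 and 144 of Hspg2, against 55.5 and 104, 160.4 and 121, and 469 and 419 in the largest endothelial-like subcluster. Hspg2 was thus lower in it in both libraries, and Lama3 and Lama5 in replicate 2 alone. With subclusters against their name left out, Lama3, Lama5 and Hspg2 were still called higher in endothelial-like nuclei. The immune-like subcluster of this kind held 26 and 138 nuclei, with a mean doublet score of 0.242. Scrublet marked 1 nucleus in each library as a doublet by its own threshold, a result too small to use, so no nuclei were removed, and removal of the 6% with the highest scores was run as an alternative.

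Likeness between genes was read over the 12 points of cell type and library, which share 2 libraries, as the Pearson correlation of log2(CPM + 1), with no p. For the α chains the 3 most alike genes were Dchs2, Aff2 and Dclk1 for Lama2 (0.986, 0.970 and 0.962), Pbld1, Nemp1 and Fez2 for Lama3 (0.891, 0.855 and 0.850), Kif1b, Gnb5 and Tada2a for Lama4 (0.949, 0.930 and 0.922), and Tinagl1, Aqp1 and Rgs5 for Lama5 (0.952, 0.952 and 0.944). For Lamb1 they were Nav3, Kcnq1ot1 and Pcsk5 (0.893, 0.885 and 0.883), for Lamb2 Clstn1, Ccdc157 and Hoxd9 (0.962, 0.958 and 0.954), and for Lamc1 Plpp3, Srgap1 and Adamts5 (0.9499, 0.933 and 0.911). Nid1 shared Plpp3 and Adamts5 with Lamc1 (0.951 and 0.917) and had Cd55 (0.922). Nid2 was most like Podn, Rimklb and Tle3 (0.922, 0.919 and 0.919), and Hspg2 most like Pam, Fam13c and Gata2 (0.928, 0.920 and 0.912).

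Among the members themselves, Lamc1 and Nid1 were most alike (0.942), before Lamb1 and Lamc1 (0.898), Lamb2 and Hspg2 (0.884) and Lamb1 and Nid1 (0.859). Lama5 and Nid2 were the least alike (-0.511), and Lama2 and Lama4 gave -0.224. In thinned FAP-like nuclei Lama2 and Lama4 are both present. There Lama4 was seen in 27.2% and 33.4% of nuclei with Lama2 and in 27.2% and 40.8% of those without it. These nuclei include the FAP-like subcluster led by adipocyte genes, and its part was not tested.

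Some counts of the members may hold reads of neighbouring genes, because 9 of the 10 overlap a gene on the opposite strand (Lamb2 does not) and 6 overlap one on the same strand, and the sources used here do not say how strand was used in counting. The overlap matters most where the other gene has many UMIs: 725 for Adrm1 against 569 for Lama5 over 85 shared bases, 4214 against 11686 for Lamb1 over 336 bases, and 1706 against 3563 for Nid2. For Lama4 the opposite genes held 453 UMIs against its 65162, and for Lama2 195 against 5694. The levels of Lama5, Lamb1 and Nid2 are uncertain to that extent.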

How the data were processed

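Nuclei of 2 young VAT libraries were used, each from 1 mouse. Per the file headers and the methods of the study, the deposited matrices hold UMI counts per gene and nucleus, made by the authors with CeleScope on GRCm39, with versions and annotation not stated. Every nucleus with more than 500 genes, more than 1000 UMIs and under 15% mitochondrial UMIs was kept, 8466237 UMIs in replicate 1 and 48068272 in replicate 2. Counting error alone did not cover the distance between the libraries (chi-square of 86.3 per degree of freedom over 31197 genes), and each level carries the counting error of its UMIs.

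Clustering used leidenalg 0.10.2 (20 neighbours, resolution 0.1, seed 1). It rested on 1000 variable genes without the basement membrane genes, 30 principal components (16 within types) and Harmony on the library. These earlier steps were coded with numpy and scikit-learn, Harmony as an own implementation, and scanpy 1.11.5 was used for Scrublet. A cluster was named where a share of at least 0.5 of a marker list, and at least 3 markers, had a log2 fold change of 1 or more and were found in 5% of its nuclei. UMIs were summed by type and library for types with at least 20 nuclei in each. These sums were tested with edgeR 4.0.16 (filterByExpr, TMM, glmQLFit and glmQLFTest) in R 4.3.3, with the library as a block. The ratios of each library alone are differences of log2 CPM after TMM scaling, with a prior count of 2. As every type came from the same animals, the pairing was checked: the differences between libraries correlated between types in each of 15 pairs (r from 0.172 to 0.635 over 8084 genes). Subclusters were compared by 1 test over all of them. The procedure was tested on simulated data. The named genes are the 10 members, 22 other components, 9 receptors, and the 3 genes most like each member. The members and lists were chosen with earlier results of these data known. Values of 1 listed component are not reported here.

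Detection was read after thinning each nucleus to 1000 UMIs, with exact Clopper-Pearson intervals. Gene spans and transcript lengths came from GENCODE vM39 (GRCm39; 41 of 41 genes found by identifier), and promoters from RefSeq on GRCm38.p6. Alternatives changed the low-count filter, the test (DESeq2 1.42.0), the library block, doublets, the mitochondrial limit, resolution, integration, principal components, variable features, subclusters whose leading genes go against their name, the length scale and the thinning, and each library was left out in turn. Scaling by library totals, the subclusters led by other types left out of the subcluster comparison, and the clustering, doublet and subcluster settings for the pairs of types were added after seeing the data. The rule for subclusters against their name (803 nuclei left out) was set after their leading genes were seen. The old mice and the subcutaneous tissue of the study were not used. Further tools were Python 3.11.15, numpy 2.4.6, scipy 1.17.1, pandas 2.3.3, scikit-learn 1.9.0, igraph 0.11.9 and matplotlib 3.10.9.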

Additional observations from a re-analysis of the deposited data

How the results depend on the processing

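No member changed direction in its leading cell type under any setting run. Of 106 such log2 values, 103 stayed on the same side of an adjusted p of 0.05, with the fold not considered. Lama3 in endothelial-like nuclei was weaker without the replicate block (1.28, adjusted p = 0.0811) and at resolution 0.3 (1.00, adjusted p = 0.0549), and Lamb2 in smooth muscle-like nuclei was stronger under library totals (1.04, adjusted p = 0.036), with adjusted p from 1.7e-06 to 0.0811 for Lama3 and 0.036 to 0.497 for Lamb2 over the settings. With either library left out, the log2 ratios of the members lay between 0.38 and 4.67. Members higher in adipocyte-like nuclei were 2 (Lama4 and Lamc1) with no filter on low counts, with doublets removed and with subclusters against their name left out, and members higher in smooth muscle-like nuclei were 2 (Lama5 and Lamb2) under library totals. Lower members were 0 in FAP-like nuclei without the replicate block and at a mitochondrial limit of 5%, 1 in mesothelial-like nuclei with doublets removed (Nid1), 2 in smooth muscle-like nuclei with no filter (Nid1 and Nid2), and in endothelial-like nuclei 3 at the mitochondrial limit of 5%, 1 at resolution 0.3 (Lama2) and 1 with subclusters against their name left out (Lamb1). Further members changed in number by less: in adipocyte-like nuclei 3 were lower with no filter, no replicate block and the mitochondrial limit of 5% (Lamb2 lost) and 5 by DESeq2 and library totals (Hspg2 added); in immune-like nuclei 6 were lower without the replicate block (Lama5 lost), and 7 at the mitochondrial limit of 5% (Lama2 for Lama5) and at resolution 0.3 (Lama2 for Lama4); in endothelial-like nuclei 2 were higher without the replicate block and at resolution 0.3 (Lama3 lost) and at the mitochondrial limit of 5% (Hspg2 lost), and 4 with subclusters against their name left out (Lamb2 added); and in FAP-like nuclei 6 were higher at the mitochondrial limit of 5% (Lamb2 added). For adipocyte-like against FAP-like nuclei, lower members were 4 at the mitochondrial limit of 5% (Lamb1 lost), 6 by DESeq2 (Lamc1 added), 7 under library totals (Lamc1 and Lama3 added), and 6 (Lama3 added) with doublets removed, no integration, basement membrane genes among the features and subclusters against their name left out. For mesothelial-like against FAP-like nuclei 5 were lower (Hspg2 added) with doublets removed and with subclusters against their name left out. Genes higher were 1111 (DESeq2) and 796 (library totals) in adipocyte-like, 899 (resolution 0.3) in mesothelial-like and 5668 (mitochondrial limit of 5%) in endothelial-like nuclei. Genes lower were 5990 in adipocyte-like and 738 in FAP-like nuclei at the mitochondrial limit of 5%, where the endothelial-like class held 74 and 2238 nuclei; 173 in FAP-like, 200 in mesothelial-like, 85 in endothelial-like and 94 in smooth muscle-like nuclei without the replicate block; 498 in mesothelial-like and 647 in endothelial-like nuclei with subclusters against their name left out; 480 in endothelial-like nuclei at resolution 0.3; and in endothelial-like and smooth muscle-like nuclei 185 and 182 by DESeq2 and 180 and 191 under library totals. For mesothelial-like against FAP-like nuclei, 1 member was higher (Nid2) with no filter, DESeq2, no replicate block, library totals and resolution 0.3. For smooth muscle-like against endothelial-like nuclei, 1 was higher with 15 principal components (Lama2) and 1 lower with subclusters against their name left out (Hspg2). Members between subclusters were 0 in adipocyte-like nuclei without the replicate block, 3 (no filter), 3 (DESeq2) and 1 (no replicate block) in FAP-like nuclei, and 3 (no replicate block) and 0 (subclusters led by other types left out) in mesothelial-like nuclei. Mean α chain shares per kb of gene span were 97.7% for Lama4 in adipocyte-like, 24.8% for Lama2 in FAP-like, 58.9% for Lama4 in endothelial-like and 48.9% for Lama4 in smooth muscle-like nuclei, which follows from the lengths used. Library totals, the subclusters led by other types and the clustering settings of the pairs were chosen after seeing the data. At resolution 0.3 no cluster could be named adipocyte-like, so it gave no adipocyte-like value and every other type was set against 4 types without adipocyte-like nuclei, and at the mitochondrial limit of 5% mesothelial-like and smooth muscle-like nuclei were not tested, with 19 and 13 nuclei in replicate 1, so each type was set against 3 others; changes at these settings mix the setting with the types averaged. The cause of the other changes was not tested.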

Other observations

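A subcluster of 20 endothelial-like nuclei, all from replicate 2 and matching the lymphatic endothelial marker list, held 2333 CPM of Lama4, above the 1499 CPM of adipocyte-like nuclei of that library; with 1 library it was not tested. Smooth muscle-like nuclei split into a subcluster of 20 and 105 nuclei that matched the adipocyte and not the smooth muscle list, though Rgs5, Abcc9 and Pdgfrb were among its leading genes, with 293 and 21.7 CPM of Lama5, and another, of 3 and 42 nuclei, that matched the smooth muscle list, with 65.1 and 166. The 65.1 CPM rest on 1 UMI, below the floor of 3 UMIs, so the subclusters of replicate 1 cannot be ordered.

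Tinagl1, a matricellular protein related to tubulointerstitial nephritis antigen, followed Lama5 over the cell types. It held 345 and 137 CPM in smooth muscle-like and 406 and 63.0 in endothelial-like nuclei, against 5.20 and 1.09 in adipocyte-like nuclei. By edgeR it rose by 4.37 in smooth muscle-like (adjusted p = 8.3e-15) and by 3.95 in endothelial-like nuclei (adjusted p = 5.1e-17). Itga1, the α1 chain of a collagen and laminin receptor, held 675.5 and 439 CPM in smooth muscle-like and 344 and 266 in endothelial-like nuclei and rose by 3.31 (adjusted p = 2.9e-19) and 2.47 (adjusted p = 2.5e-16).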
